A study of Homo sapiens with 6 samples.

Results

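The genes described here are 9 genes of the NRF2 antioxidant pathway, chosen by name from the gene count table: NFE2L2, which encodes the transcription factor NRF2, its inhibitor KEAP1, and the target genes NQO1, HMOX1, GCLC, GCLM, TXNRD1, SRXN1 and GPX2. They are 9 of the 58735 genes in the table, and all 9 had enough counts to be tested. The study asked which genes change when CNOT7, a deadenylase subunit of the CCR4-NOT complex, is depleted in colorectal cancer cells. Total RNA was sequenced from 3 libraries labelled CNOT7 knockdown and 3 labelled CNOT7 control, all from a stable line made with lentiviral shRNA or its control, and none received a treatment such as irradiation. The labels name the cell line SW480, whereas the study's account of its results names HCT116 for the RNA sequencing. Both are human colorectal cancer lines, and the groups are the same under either name. Which shRNA each knockdown library carries, and whether a line came from 1 clone, is not given in the sources used here. Nothing states that the libraries of a group came from separate cultures, so the p-values measure the spread between these libraries, which may be technical.

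NRF2 is a basic leucine zipper transcription factor that is made constantly and destroyed constantly. KEAP1 holds it in the cytoplasm and presents it to the CUL3-RBX1 ubiquitin ligase. Electrophiles and oxidants modify cysteines of KEAP1, NRF2 then escapes degradation, enters the nucleus, pairs with a small MAF protein and binds antioxidant response elements (AREs) near genes of glutathione synthesis, thioredoxin reduction, quinone detoxification and heme breakdown. BACH1 occupies the same elements as a repressor, and HMOX1 is its best known target. Because NRF2 is controlled mainly through protein stability, the mRNA level of NFE2L2 is not a measure of its activity, and the protein was not measured here.

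The ARE core was searched in RefSeq promoters (GRCh38.p14, 250 bases before to 50 bases after each start) as TGACNNNGC on both strands, to show which of the genes carry it close to a start site. Promoters were given for 8 of the 9 genes, all but HMOX1, and 4 genes had at least 1 match. Among all 35116 promoters 13.3% held a match, as did 5 of the 11 promoters of these genes. The matches are printed on the strand of the gene with the core in capitals and 10 bases on each side. A core that lies on the other strand reads GCNNNGTCA.
KEAP1, chr19:10502807-10502835, reverse strand: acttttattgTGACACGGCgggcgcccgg
KEAP1, chr19:10502784-10502812, reverse strand: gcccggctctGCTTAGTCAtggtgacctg
GCLM, chr1:93909446-93909474, reverse strand: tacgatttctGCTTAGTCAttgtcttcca
TXNRD1, chr12:104215670-104215698, forward strand: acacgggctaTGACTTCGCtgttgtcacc
TXNRD1, chr12:104215761-104215789, forward strand: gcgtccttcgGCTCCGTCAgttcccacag
TXNRD1, second start, chr12:104286920-104286948, forward strand: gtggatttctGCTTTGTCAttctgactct
GPX2, chr14:64942849-64942877, reverse strand: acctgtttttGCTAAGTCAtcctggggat
The second KEAP1 core and the GCLM core have the same letters, GCTTAGTCA. The related AP-1 motif TGANTCA was in 7.7% of all promoters and in 0 of the 11 promoters of these genes. A match is a description of letters and not a bound site, and AREs that lie farther from the start, as is known for HMOX1, fall outside this window.

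CNOT7 itself stood between 169 and 191 CPM (counts scaled by TMM factors to a common library total) in the control libraries and between 38.6 and 47.2 CPM in the knockdown libraries, and the groups did not overlap. Totals ranged from 23788451 to 25982493 counts in the control libraries and from 27523812 to 29104872 in the knockdown libraries. The sum of 9 colorectal epithelial markers was 5554.8 to 5972.7 CPM in the control and 5133.7 to 5684.4 CPM in the knockdown libraries, with LGALS4 under 1 CPM in every library. The keratins make up most of this sum, and single markers moved both ways: VIL1 (log2 fold change 0.717) and CDH1 (0.505) were higher and KRT8 (-0.148) and KRT19 (-0.178) were lower at adjusted p-values of 2.93e-05, 0.000155, 0.0414 and 0.0212 (edgeR). On the opposite strand USP37 covers 44.0% of the exonic bases of VIL1. The sum of 5 immune markers was 0.3 to 1.2 CPM in the control and 1.4 to 1.6 CPM in the knockdown libraries, and PTPRC, CD3E, CD68 and LYZ were under 1 CPM throughout. For 5 fibroblast and endothelial markers the sums were 10.9 to 12.6 and 12.9 to 14.5 CPM, with COL3A1 at 0 and PECAM1 under 1 CPM. The part of these markers in the results was not tested.

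With CNOT7 knockdown, GPX2, HMOX1 and NQO1 were higher, KEAP1 and TXNRD1 were lower, and NFE2L2, GCLC, GCLM and SRXN1 did not pass the test. A gene passed when its adjusted p-value from edgeR's quasi-likelihood test, corrected by the Benjamini-Hochberg method over all 17574 tested genes, was under 0.05. Higher calls were thus 3 of 9, where the background over all tested genes was 13.3%, and lower calls 2 of 9, where it was 11.9%. The groups did not overlap for 5 of the 9 genes, against 38.8% of all tested genes. The median log2 fold change of the 9 genes was 0.067, and that of all tested genes was 0.00393. In bulk RNA a lower value can mean fewer cells with the transcript or less transcript per cell, and these cannot be told apart.

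**Figure D1:**
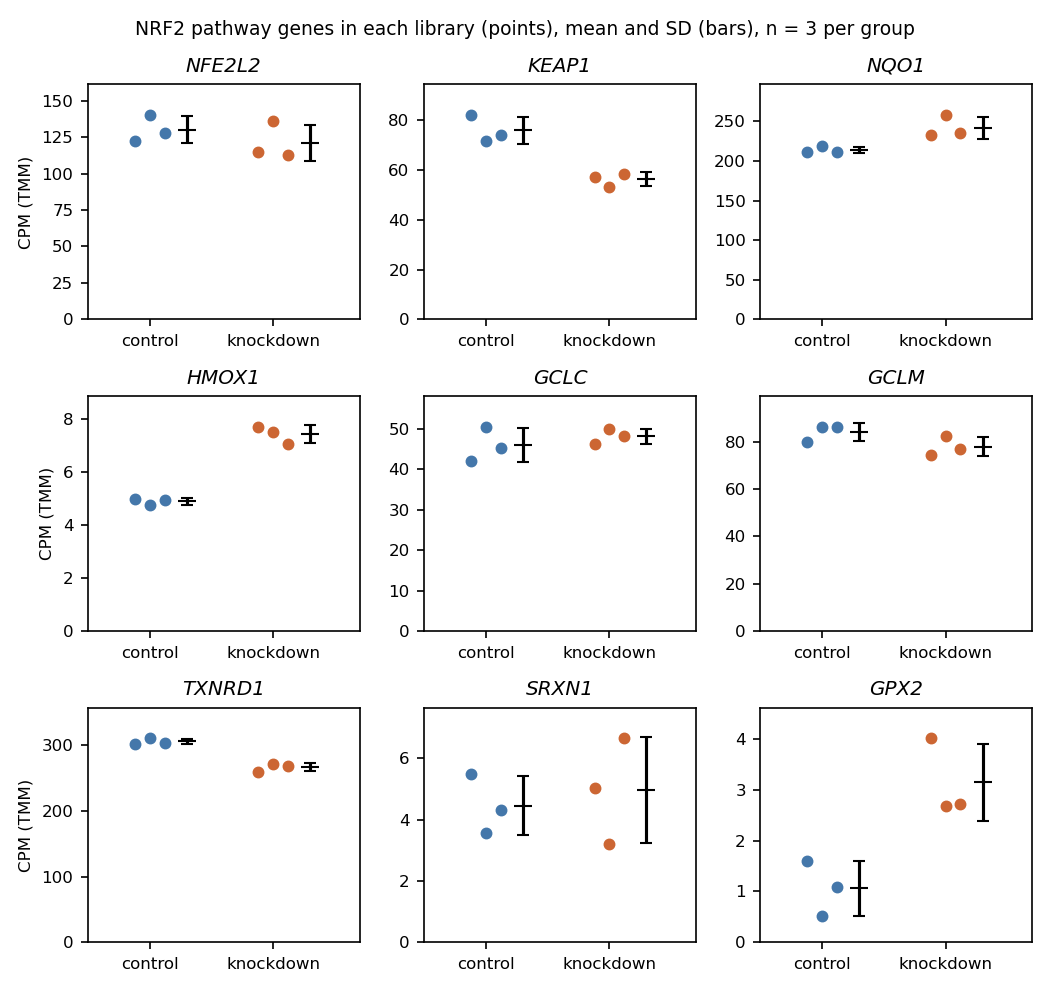
Expression of the 9 genes in each library, in TMM-scaled CPM on axes that start at 0, with replicates 1, 2 and 3 from left to right within each group and the mean and SD (n = 3) beside them. The control and knockdown points are separate for KEAP1, NQO1, HMOX1, TXNRD1 and GPX2 and overlap for NFE2L2, GCLC, GCLM and SRXN1.

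Per length, the order of the genes in the control libraries ran from NQO1 at 65.7 ± 1.35 RPKM (SD, n = 3), TXNRD1 at 45.4 ± 0.625 and NFE2L2 at 21.7 ± 1.53 to KEAP1 at 20.2 ± 1.42 and GCLM at 15.5 ± 0.689 RPKM. Below them lay GCLC at 5.33 ± 0.491, HMOX1 at 2.03 ± 0.0568, SRXN1 at 1.65 ± 0.359 and GPX2 at 0.709 ± 0.360 RPKM. NFE2L2 and KEAP1 did not differ beyond their spread, and HMOX1 exceeded SRXN1 by little more than the SD of SRXN1. In the knockdown libraries KEAP1 stood at 15.0 ± 0.752 RPKM beside GCLM at 14.4 ± 0.763, closer than their spread. GPX2 at 2.09 ± 0.504 and SRXN1 at 1.84 ± 0.642 RPKM, as counted, were also within their spread of each other. Of the exonic bases of SRXN1 85.0% are shared with another gene on the same strand. Its level per length may thus be understated in both groups, and its place beside HMOX1 and GPX2 is uncertain.

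KEAP1 (ENSG00000079999, GRCh38 chromosome 19, 10486120 to 10503741, reverse strand) is the substrate adaptor that marks NRF2 for degradation. It stood at 82.0, 71.7 and 74.1 CPM in control replicates 1, 2 and 3 and at 57.2, 53.1 and 58.5 CPM in knockdown replicates 1, 2 and 3. Every knockdown library lay below every control library. This gave a log2 fold change of -0.43 (SE 0.0675, adjusted p = 0.000144 from edgeR), a fall of 25.9%. With each library left out in turn it lay between -0.47 and -0.38 and passed each time.

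NFE2L2 (ENSG00000116044, chromosome 2, 177227595 to 177392697, reverse strand) stood at 122, 140 and 128 CPM in the control and at 115, 136 and 113 CPM in the knockdown libraries. The second replicate was the highest in both groups, and the groups overlapped. Its log2 fold change was -0.095 (SE 0.0719, adjusted p = 0.368 from edgeR). It passed when knockdown replicate 2 was left out, at -0.185 with an adjusted p of 0.0315, and not without any other library. Of its exonic bases 17.6% are shared with other genes on the same strand, so its count may lack reads of its own or hold reads of those genes.

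The balance of NRF2 and its inhibitor at the RNA level was read as the log2 ratio of NFE2L2 to KEAP1 in each library, in CPM. It was 0.57, 0.96 and 0.79 in the control and 1.01, 1.36 and 0.95 in the knockdown libraries. Knockdown replicate 3 fell just below control replicate 2, so the groups overlapped at that point alone. The mean was 0.77 ± 0.196 in the control and 1.11 ± 0.218 in the knockdown libraries (SD, n = 3), a difference of 0.33 that did not pass a two-sided exact permutation test (p = 0.2, where 3 against 3 libraries allow no p below 0.1).

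HMOX1 (ENSG00000100292, chromosome 22, 35380361 to 35394214, forward strand) encodes heme oxygenase 1, which splits heme into biliverdin, carbon monoxide and iron. It stood at 4.98, 4.73 and 4.95 CPM in the control and at 7.70, 7.50 and 7.05 CPM in the knockdown libraries. The groups were well apart, with a spread of 0.137 CPM (SD) in the control and 0.332 CPM in the knockdown libraries. The log2 fold change was 0.60 (SE 0.122, adjusted p = 0.00151 from edgeR), which is 1.52-fold, on counts of 110 to 217 per library. It passed with any library left out, between 0.56 and 0.63.

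GPX2 (ENSG00000176153, chromosome 14, 64939152 to 64942905, reverse strand) encodes the gastrointestinal glutathione peroxidase, a selenoprotein of the gut epithelium that reduces hydroperoxides. Its counts were 41, 12 and 27 in the control and 113, 74 and 81 in the knockdown libraries, or 1.60, 0.516 and 1.08 against 4.01, 2.68 and 2.72 CPM. The lowest knockdown library was above the highest control library. At a log2 fold change of 1.54 (SE 0.289, adjusted p = 0.000777 from edgeR), which is 2.91-fold, it had the largest change of the 9 genes and also the fewest counts. Without control replicate 2, the lowest library, it was 1.22, and without control replicate 1 it was 1.95, and it passed in each case.

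NQO1 (ENSG00000181019, chromosome 16, 69706996 to 69726951, reverse strand) encodes the quinone reductase that is a widely used marker of NRF2 activity. It stood at 212, 219 and 211 CPM in the control and at 233, 258 and 236 CPM in the knockdown libraries. The groups did not overlap, and knockdown replicate 2 was the highest. The log2 fold change was 0.18 (SE 0.0547, adjusted p = 0.0228 from edgeR), a rise of 13.3%. The call was lost without control replicate 1 (0.17, adjusted p = 0.0724), without control replicate 3 (0.17, adjusted p = 0.111) and without knockdown replicate 2 (0.13, adjusted p = 0.0669). On the opposite strand AC092115.2 covers 17.7% of its exonic bases, and the library kit does not mark strand.

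TXNRD1 (ENSG00000198431, chromosome 12, 104215779 to 104350305, forward strand) encodes the cytosolic thioredoxin reductase, a selenoprotein that keeps thioredoxin reduced. It stood at 301, 310 and 303 CPM in the control and at 259, 270 and 268 CPM in the knockdown libraries. All 3 knockdown libraries lay below the control libraries. The log2 fold change was -0.197 (SE 0.0490, adjusted p = 0.00665 from edgeR), a fall of 12.8%, and it passed with any library left out, between -0.211 and -0.188. NQO1 and TXNRD1, the highest of the 9 genes per length, thus moved in opposite directions by small amounts.

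GCLC and GCLM encode the catalytic and the modifier subunit of glutamate-cysteine ligase, which makes the first intermediate of glutathione. GCLC stood at 42.2, 50.6 and 45.4 CPM in the control and at 46.4, 50.0 and 48.3 CPM in the knockdown libraries (log2 fold change 0.067, SE 0.0739, adjusted p = 0.560 from edgeR). GCLM stood at 79.9, 86.4 and 86.4 CPM in the control and at 74.6, 82.6 and 76.8 CPM in the knockdown libraries (log2 fold change -0.11, SE 0.0620, adjusted p = 0.211 from edgeR). The groups overlapped for both genes. Their log2 ratio within each library, GCLC to GCLM, was -0.922, -0.772 and -0.927 in the control and -0.684, -0.724 and -0.669 in the knockdown libraries. Here the groups did not overlap. The mean ratio was -0.874 ± 0.0879 and -0.693 ± 0.0281 (SD), a difference of 0.181 with a two-sided exact permutation p of 0.1, which is the smallest that 3 against 3 libraries allow.

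SRXN1 (ENSG00000271303, chromosome 20, 646615 to 653370, reverse strand) encodes sulfiredoxin, which repairs overoxidized peroxiredoxins. It stood at 5.49, 3.57 and 4.31 CPM in the control and at 5.04, 3.19 and 6.65 CPM in the knockdown libraries. Knockdown replicates 2 and 3 were the lowest and the highest of all 6 libraries. The log2 fold change was 0.155 (SE 0.216, adjusted p = 0.654 from edgeR) and turned to -0.123 without knockdown replicate 3. Its SE was the second largest of the 9 genes, after that of GPX2. Of its exonic bases 85.0% are shared with AL121758.1 on the same strand, a gene named here after its values were seen, so reads of the pair may not have been assigned to SRXN1. AL121758.1 was counted at 0.320 CPM on average in the control and 0.397 CPM in the knockdown libraries (adjusted p = 0.710 from edgeR).

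**Figure D2:**
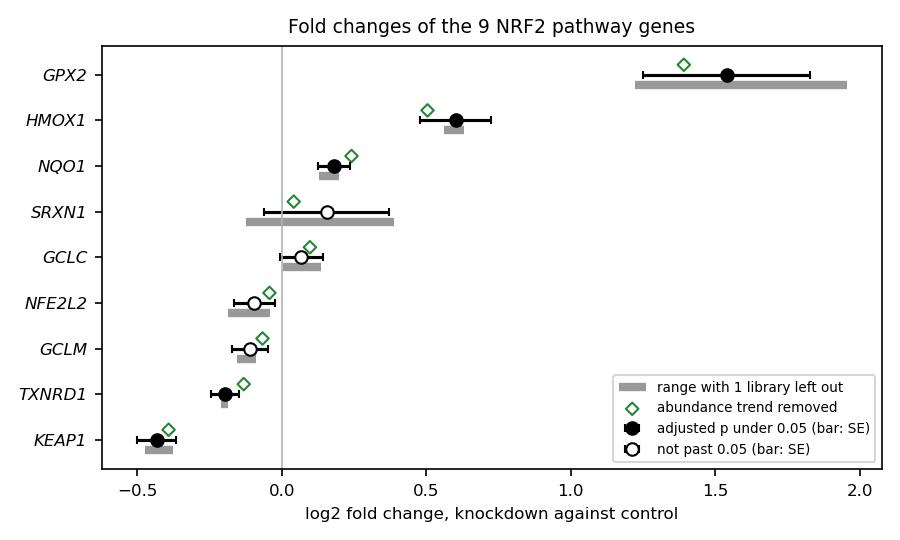
Log2 fold changes (knockdown against control) of the 9 genes, with filled points where edgeR's adjusted p-value was under 0.05 and bars for the SE; the grey band is the range with 1 library left out and the open diamond the value with the abundance trend removed. GPX2 at 1.54 has the widest band above 0, SRXN1 is the gene whose band crosses 0, and KEAP1 at -0.43 is the lowest.

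Fold changes in these libraries varied with abundance. When the tested genes were ordered by mean CPM and cut into 10 bins, the median log2 fold change was 0.153 in bin 3, which holds GPX2, 0.085 in bin 4, which holds HMOX1 and SRXN1, and -0.058 in bin 10, the most abundant, which holds NQO1 and TXNRD1. Genes called higher made up 18.2% of bin 3, 21.0% of bin 4 and 9.78% of bin 10. Genes called lower made up 18.1% of bin 8, which holds KEAP1, and 25.8% of bin 10. Bins 7 to 10, where 16.3% to 25.8% of all genes were lower, hold 6 of the 9 genes. GPX2 and HMOX1 lay above the upper quartile of their bins, at 0.468 and 0.347. TXNRD1 lay below the lower quartile of its bin, at -0.162, and NQO1 above the upper, at 0.039. With the trend removed by cyclic loess, GPX2 was at 1.39, HMOX1 at 0.50, NQO1 at 0.24, KEAP1 at -0.39 and TXNRD1 at -0.13. All 5 still passed, TXNRD1 with an adjusted p of 0.0484.

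**Figure D3:**
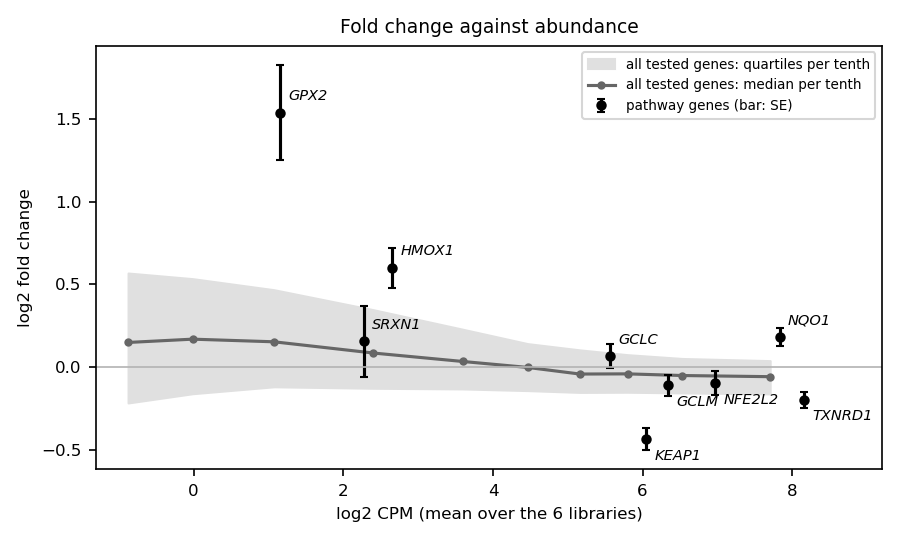
Log2 fold change against mean log2 CPM over the 6 libraries, with the median (line) and quartiles (band) of each of 10 abundance bins over all tested genes, and the 9 pathway genes with their SE. GPX2 and HMOX1 sit above the band among genes of low abundance, KEAP1 sits below it among abundant genes, and NQO1 and TXNRD1 lie above and below its level at the most abundant end.

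Among 19 other regulators and partners of NRF2, 7 were lower and 1 was higher with CNOT7 knockdown, and their median log2 fold change was -0.11. Over all tested genes 11.9% were lower and 13.3% higher. In abundance bins 7 to 10, which hold 16 of the 19 regulators, 16.3% to 25.8% of all genes were lower. The coactivators CREBBP and EP300, acetyltransferases that NRF2 recruits, were both lower. CREBBP was at 112 ± 4.08 CPM (SD, n = 3) in the control and 81.4 ± 1.92 CPM in the knockdown libraries, a log2 fold change of -0.46 (SE 0.0567, adjusted p = 1.26e-05 from edgeR). EP300 stood at 139, 142 and 136 CPM in the control and at 118, 117 and 104 CPM in the knockdown libraries, a log2 fold change of -0.30 (adjusted p = 0.00128). DPP3, a peptidase that binds KEAP1 and competes with NRF2, was at 84.3 ± 9.07 and 63.9 ± 5.65 CPM (log2 fold change -0.40, adjusted p = 0.00133). BACH2, a repressor related to BACH1, was the gene that was higher, at 3.03 ± 0.448 and 4.65 ± 0.407 CPM (log2 fold change 0.62, adjusted p = 0.00913), and it lost the call without control replicate 3 (0.495, adjusted p = 0.0638) and without knockdown replicate 1 (0.538, adjusted p = 0.0542). The number of regulators lower was 4 without control replicate 3, and the number higher moved between 0 (without control replicate 3 or knockdown replicate 1) and 2 (without control replicate 2 or knockdown replicate 3).

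Of 49 other NRF2 targets in the lists, 42 were tested, and 7 were higher and 7 lower, with a median log2 fold change of 0.056. Each direction was thus 16.7% of the targets, near the 13.3% higher and 11.9% lower of all tested genes. With the abundance trend removed 9 were higher and 4 lower, and in DESeq2 5 and 7. Without control replicate 2 or knockdown replicate 1 the number higher was 4, and without control replicate 3 the number lower was 3. Groups did not overlap for 19 of the 42, or 45.2%, near the 38.8% of all tested genes.

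Among 9 tested genes of glutathione synthesis and conjugation, 2 were higher and 2 lower. Each was 22.2%, beside 13.3% higher and 11.9% lower over all tested genes. GSTA4, which conjugates lipid aldehydes, was at 2.80 ± 0.294 CPM (SD, n = 3) in the control and 4.15 ± 1.07 CPM in the knockdown libraries (log2 fold change 0.57, adjusted p = 0.0373 from edgeR), and kept the call in 2 of 6 fits that leave out a library. The call was lost without each control replicate in turn and without knockdown replicate 1, where the log2 fold change was 0.338 (adjusted p = 0.253). GSS, glutathione synthetase, was at 114 ± 9.32 and 133 ± 3.66 CPM (log2 fold change 0.22, adjusted p = 0.0167) and lost the call without control replicate 2 (0.150), knockdown replicate 1 (0.202) or knockdown replicate 3 (0.196). GSTM4, a glutathione transferase, was lower at 32.3 ± 3.07 and 25.8 ± 1.45 CPM (log2 fold change -0.33, adjusted p = 0.00752), but not without control replicate 3 (-0.251, adjusted p = 0.0746). SLC7A11, the cystine importer, was at 33.8 ± 1.43 and 29.3 ± 1.28 CPM (log2 fold change -0.208, adjusted p = 0.0454). It kept the call without knockdown replicate 2 alone, and its log2 fold change without any other library lay between -0.231 and -0.175. Of the thioredoxin and peroxiredoxin targets TXN, PRDX1 and PRDX6, 0 of 3 passed in edgeR or in DESeq2, and 0 had an unadjusted p under 0.05, with a median of -0.008.

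In the supply of NADPH, the reductant that NQO1, TXNRD1 and glutathione reductase consume, 1 of 6 genes was higher and 2 were lower. These are 16.7% higher and 33.3% lower, beside 13.3% and 11.9% over all tested genes. All 6 lie in abundance bins 7 to 10, where 16.3% to 25.8% of all genes were lower. ME1, malic enzyme, was at 53.3 ± 3.21 CPM (SD, n = 3) in the control and 64.1 ± 2.27 CPM in the knockdown libraries (log2 fold change 0.27, adjusted p = 0.00611 from edgeR). PGD, of the oxidative pentose phosphate pathway, was at 132 ± 1.58 and 115 ± 1.82 CPM (log2 fold change -0.20, adjusted p = 0.00985). TALDO1, transaldolase, was at 250 ± 8.07 and 223 ± 5.47 CPM (log2 fold change -0.161, adjusted p = 0.0293). It lost the call without control replicate 1 (-0.155), control replicate 3 (-0.144) or knockdown replicate 1 (-0.155).

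Among 10 tested detoxification enzymes, 2 were higher, 1 was lower and 7 did not pass. Over all tested genes 13.3% were higher and 11.9% lower, and these counts rest on few genes. ALDH3A1, an aldehyde dehydrogenase, stood at 4.40, 4.69 and 4.63 CPM in the control and at 8.48, 9.17 and 8.39 CPM in the knockdown libraries. The knockdown libraries were thus close together and far above the control libraries, at a log2 fold change of 0.93 (SE 0.120, adjusted p = 2.22e-05 from edgeR). CBR1, carbonyl reductase, was higher at 32.7 ± 1.36 and 40.9 ± 1.98 CPM (SD, n = 3; log2 fold change 0.32, adjusted p = 0.00284 from edgeR). AP000688.1 covers 18.9% of the exonic bases of CBR1 on the opposite strand. PTGR1, prostaglandin reductase, was at 31.3 ± 3.37 and 26.5 ± 0.174 CPM (log2 fold change -0.239, adjusted p = 0.0419) and kept the call without control replicate 1 alone. Its log2 fold change was -0.150 without control replicate 2 and between -0.275 and -0.234 without the others.

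Of 6 genes of iron and heme handling, 1 was higher and 2 were lower beside the rise of HMOX1. These are 16.7% higher and 33.3% lower, beside 13.3% and 11.9% over all tested genes. Abundance bins 7 to 10, where 16.3% to 25.8% of all genes were lower, hold 4 of the 6. SLC48A1, a heme transporter, stood at 274, 255 and 277 CPM in the control and at 181, 171 and 179 CPM in the knockdown libraries. This was a log2 fold change of -0.60 (SE 0.0542, adjusted p = 3.78e-07 from edgeR), about the size of the HMOX1 change in the other direction. FTH1, the ferritin heavy chain, was at 579 ± 30.1 and 481 ± 13.9 CPM (SD, n = 3; log2 fold change -0.27, adjusted p = 0.00103 from edgeR), and BEST1 covers 62.4% of its exonic bases on the opposite strand. BLVRB, a biliverdin reductase, was at 22.9 ± 1.16 and 27.2 ± 2.65 CPM (log2 fold change 0.25, adjusted p = 0.0435). It kept the call without knockdown replicate 2 alone and lay between 0.192 and 0.272 without any other library, and also lost it in DESeq2 (adjusted p = 0.0587).

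Of 5 efflux pumps 1 was higher and 4 did not pass, where 13.3% of all tested genes were higher. The higher gene was ABCG2, a drug and urate efflux pump. It stood at 0.311, 0.516 and 0.399 CPM in the control and at 1.21, 1.38 and 1.11 CPM in the knockdown libraries, so the groups did not overlap at a low level. The log2 fold change was 1.59 (SE 0.327, adjusted p = 0.00173 from edgeR). Of the further targets OSGIN1, TRIM16 and PIR, 0 of 3 passed in edgeR or in DESeq2, and 2 had an unadjusted p under 0.05 in edgeR. Their median was 0.228.

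Outside the NRF2 lists, 1 of 21 tested antioxidant enzymes was higher and 2 were lower, with a median log2 fold change of -0.099. These shares, 4.76% and 9.52%, rest on few genes and stand beside 13.3% and 11.9% of all tested genes. At an unadjusted p under 0.05 in edgeR 1 was higher and 7 were lower. Groups did not overlap for 9 of the 21, or 42.9%, near the 38.8% of all tested genes. Abundance bins 7 to 10 hold 16 of the 21. CAT, catalase of the peroxisome, stood at 45.6, 50.3 and 48.6 CPM in the control and at 63.7, 71.1 and 69.0 CPM in the knockdown libraries. All knockdown libraries exceeded the control libraries, at a log2 fold change of 0.50 (SE 0.0670, adjusted p = 3.3e-05 from edgeR). The other glutathione peroxidases that passed moved against GPX2. GPX4, which reduces lipid hydroperoxides, was at 251 ± 17.9 and 212 ± 3.48 CPM (SD, n = 3; log2 fold change -0.245, adjusted p = 0.00437 from edgeR), and the secreted GPX3 was at 15.5 ± 0.822 and 12.2 ± 0.631 CPM (log2 fold change -0.335, adjusted p = 0.0144), without the call when control replicate 3 was left out (-0.328, adjusted p = 0.0547). The number of these enzymes lower was 1 without control replicate 3 and 4 without knockdown replicate 2 or 3.

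GPX2 and TXNRD1 carry selenocysteine, and of 13 further selenoprotein and selenium genes tested, 0 were higher and 3 were lower in edgeR (0 and 3 in DESeq2), or 23.1% lower where all tested genes gave 11.9% lower and 13.3% higher. At an unadjusted p under 0.05 in edgeR 1 was higher and 3 were lower. The median log2 fold change was -0.026. Abundance bins 7 to 10, where 16.3% to 25.8% of all genes were lower, hold 9 of the 13 genes. The selenoproteins GPX1, GPX3, GPX4, TXNRD2 and TXNRD3 are not among the 13 and were counted with the antioxidant enzymes above. Of these GPX3 and GPX4 were lower, and GPX1, TXNRD2 and TXNRD3 did not pass. SELENOT, of the endoplasmic reticulum, was at 118 ± 4.54 and 92.5 ± 7.54 CPM (SD, n = 3; log2 fold change -0.35, adjusted p = 0.000627 from edgeR). SELENOS was at 26.1 ± 1.42 and 22.4 ± 0.956 CPM (log2 fold change -0.222, adjusted p = 0.0485) and kept the call without knockdown replicate 2 alone, with values between -0.261 and -0.182 without the others. SEPHS2, which makes the selenium donor, was at 60.0 ± 3.70 and 52.4 ± 1.12 CPM (log2 fold change -0.195, adjusted p = 0.0368) and lost the call without control replicate 1 (-0.187), control replicate 3 (-0.158) or knockdown replicate 1 (-0.191). The number lower was 1 without control replicate 1, control replicate 3 or knockdown replicate 1, and without the last 1 gene was higher.

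CNOT7 acts on poly(A) tails, and CCR4-NOT is recruited through elements in 3′ untranslated regions, so the presence of ATTTA and of the Pumilio motif TGTANATA was counted in 1 annotated transcript of each gene (GENCODE release 29, sense strand). ATTTA was in 7 of the 9 genes, or 77.8%, against 65.4% of 13629 tested genes with a coding transcript. TGTANATA was in 4 of 9, or 44.4%, against 24.8%. The regions were not matched for length, with a median of 1415 bases in the 9 genes and 953 bases in the tested genes. HMOX1, with 616 bases of 3′ untranslated region, and GPX2, with 330 bases, held neither, and both were higher. GCLM had the longest region, 3785 bases with 12 copies of ATTTA, and did not pass the test. TXNRD1 had 6 copies in 1862 bases and was lower, and NQO1 had 1 copy in 1575 bases and was higher. The lower gene KEAP1 held 1 copy of each motif in 532 bases. A link between these motifs and the changes was not tested.

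For each of the 5 genes that passed, the tested genes with the most similar profile were taken as those with the smallest root mean square difference in centred log2 CPM over the 6 libraries. For TXNRD1 these were TGFBI (0.00998), SETD3 (0.0147) and SLC50A1 (0.0150), and for NQO1 they were C2orf49 (0.0171), BLACAT1 (0.0180) and UBTD2 (0.0204). HMOX1 was closest to NCAM1 (0.0223), PXMP4 (0.0357) and TNFRSF9 (0.0365), and KEAP1 to DHCR7 (0.0284), MIR503HG (0.0311) and MYL6 (0.0327). GPX2 was less close to its nearest genes, ARHGEF6 (0.155), LINC01844 (0.194) and FZD10-DT (0.197). None of these genes is in the antioxidant lists.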

How the data were processed

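RNA of 6 libraries was compared. Per the labels, the authors processed reads with CASAVA 1.8, fastp, HISAT2 2.0.5, featureCounts 1.5.0-p3 and DESeq2 1.20.0 on GRCh38, with the NEBNext Ultra RNA kit, which does not mark strand; the strand setting of the counting is not given in the sources used here. The deposited table holds raw counts per gene and a gene length. They were tested with edgeR 4.0.16 under R 4.3.3 (filterByExpr, TMM, glmQLFit and glmQLFTest, no replicate term), with Benjamini-Hochberg adjustment over 17574 of 58735 genes, calling genes below 0.05 whatever their fold change. RPKM used the deposited length. The SE was obtained from the fold change (log2) and the F statistic, as their size over the root of F. Replicate numbers come from the library titles. Replicate counts differed by more than sampling alone gives, so none is a copy. Ratios of CPM were tested by exact permutation. Gene profiles used log2 of CPM plus 0.5. All 58735 identifiers matched GENCODE 29, 58724 with the same position, and exonic sharing was counted from it.

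The 9 genes and all lists were chosen with earlier results of these data known. Named genes were the 9, CNOT7, up to 4 genes past the threshold with the largest absolute log2 fold change in each list, and the 3 nearest profiles. Alternatives were DESeq2 1.42.0, RLE factors, no filter, a minimum of 10 counts per library, a replicate term, removal of the abundance trend (limma 3.58.1, cyclic loess), leaving out each library, and for ratios CPM plus 1. On simulated counts for 17574 genes in this comparison, edgeR recovered 78 of 100 genes at a log2 change of 1 and 57 of 100 at 0.5, with 8 false calls. The counting error and the spread of 3 libraries set the SE given beside the fold changes.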

Additional observations from a re-analysis of the deposited data

How the results depend on the processing

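Over 34 named genes and 12 settings, 352 of 407 values kept direction and side of the threshold, 52 lost the call, 2 gained it and 1 reversed (SRXN1, -0.123 without knockdown replicate 3, and up to 0.387 without knockdown replicate 2); 19 genes were unaffected by any setting run. KEAP1, HMOX1, TXNRD1 and GPX2 passed under every setting. Deviations of same-numbered libraries correlated at 0.023, 0.153 and -0.015 for replicates 1, 2 and 3. The value of 0.153 was the highest of all pairs, while control replicate 1 correlated best with knockdown replicate 3 (0.132). Whether the numbers pair the libraries cannot be told from these values. A replicate block gave 3202 genes higher and 3306 lower against 2329 and 2095, 14 other NRF2 targets higher against 7, 2 regulators higher against 1, 2 antioxidant enzymes higher against 1 and 8 lower against 2, and GCLM passed (adjusted p = 0.0428, edgeR). Removing the abundance trend gave 4 other targets lower against 7, 2 regulators higher, 2 enzymes higher, and 1 selenoprotein gene lower against 3. Without a filter on low counts 1 selenoprotein gene was higher against 0. Removing the trend ended the calls of GSTA4, SLC7A11, TALDO1, PTGR1, SELENOS and SEPHS2, DESeq2 those of GSTA4 and BLVRB, RLE factors that of BLVRB, and no filter those of BLVRB, SLC7A11 and SELENOS. The cause of these shifts was not tested. With 1 library left out, genes higher ranged from 1626 to 2323 and genes lower from 1367 to 2219, the 9 genes gave 2 to 3 in each direction, other targets 4 to 8 higher and 3 to 6 lower, regulators 0 to 2 higher and 4 to 7 lower, enzymes 1 higher and 1 to 4 lower, and selenoprotein genes 0 to 1 higher and 1 to 3 lower. The NFE2L2 to KEAP1 difference ranged from 0.208 to 0.428 and the GCLC to GCLM difference from 0.155 to 0.232. Among the 9 genes GPX2 and SRXN1 have the largest SEs, on 12 to 113 and 83 to 198 counts per library. ABCG2, with 8 to 38 counts, has a larger SE (0.327) and was not tested at a minimum of 10 counts per library.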
